A study of Mus musculus with 16 samples.

Results

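The 10 genes described here act in the acrosome and in sperm-egg fusion, and they were followed through the chromatin maps of mouse haploid spermatids. They were taken by name (Acr, Acrbp, Zpbp, Zpbp2, Acrv1, Spaca3, Spaca1, Dpy19l2, Spam1, and Izumo1) from the GENCODE vM21 annotation of mm10, and they are 10 of 21938 protein-coding genes on the autosomes and sex chromosomes. The maps are 16 AutoCUT&RUN libraries, an assay in which an antibody tethers micrococcal nuclease to chromatin and the DNA released by the cut is sequenced. There are 2 libraries for each of H3K4me3, H3K27me3, H3K9me3, and the IgG control in each genotype, 1 from each of 2 sibling pairs of non-mated males aged 2 months. KO males were hemizygous for mutations in all 3 H2A.B genes (ΔH2A.B/Y), and WT males were their +/Y siblings. The KO line is a single CRISPR/Cas9 strain, made in B6;SJLF1/J zygotes and backcrossed to C57BL/6J, and the cells of both genotypes were sorted live by DNA content with Hoechst and propidium iodide.

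The acrosome is a secretory cap that forms over the nucleus of the round spermatid and is filled with enzymes and adhesion proteins. Its contents are released when sperm meet the coat of the egg, the zona pellucida, and this exposes the proteins that act when the 2 membranes meet and fuse. Most of these genes are transcribed in the male germ line alone. H3K4me3 marks nucleosomes at the starts of genes that are active or poised, whereas H3K27me3 and H3K9me3 mark 2 kinds of silenced chromatin.

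Every fragment with distinct coordinates was counted once per library, and a library held between 159611 (IgG, WT replicate 2) and 6746382 (H3K9me3, KO replicate 1) of them. H3K4me3 libraries held 784360 to 3394830 fragments and IgG libraries only 159611 to 270598, and IgG was at 0 in 29 of the 40 values for these 10 starts. H3K4me3 was high at markers of meiotic and haploid germ cells and low at those of somatic cells. Levels are given here as distinct fragments within 1 kb of the start per 1000000 distinct fragments of the library (FPM). Each of 6 spermatid markers carried H3K4me3 fragments in both genotypes, at a mean of 8.4995 to 13.8 FPM per gene in the 2 WT libraries and 14.7 to 17.9 in the 2 KO libraries. The 5 spermatocyte markers had 10.5 to 12.5 in WT and 13.1 to 13.6 in KO, where 1 of them was at 0. The 6 Sertoli, 5 Leydig, and 4 macrophage markers held at most 0.611 FPM per gene in every library, and the 6 spermatogonium markers lay between 0.39 and 2.97. The H2A.B genes could not serve as a check of genotype, because their bodies held 0 to 4 fragments in each library.

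The promoters of the 10 genes differ widely in CpG content, which is the reason to show some of them before the chromatin values. RefSeq promoter windows of GRCm38.p6, from 250 bases before the start to 50 after it, matched 9 of the 10 genes (all but Acr). The median is 7 CpG in 300 bases over all 32851 such windows, and 14 over the 16522 windows taken 1 per protein-coding gene. Spam1 had 0 and Acrv1 had 1, Zpbp and Spaca3 had 7 each, and Izumo1 had 8. Spaca1 had 16, Acrbp 17, Dpy19l2 18, and Zpbp2 26. The RefSeq start of Acrbp lies 238 bp from the GENCODE start and that of Spaca1 124 bp from it, and for the other 7 genes the distance is at most 11 bp. The windows with the fewest and the most CpG follow, 5′ to 3′ along the gene, with every CG in capitals.
Spam1 (chr6:24790938-24791237, + strand): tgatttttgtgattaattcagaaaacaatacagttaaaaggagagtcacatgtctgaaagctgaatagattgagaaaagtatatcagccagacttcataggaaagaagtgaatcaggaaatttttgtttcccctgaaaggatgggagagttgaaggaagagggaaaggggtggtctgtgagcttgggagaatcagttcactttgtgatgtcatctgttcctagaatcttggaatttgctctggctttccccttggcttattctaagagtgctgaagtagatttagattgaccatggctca
Acrv1 (chr9:36692970-36693269, + strand): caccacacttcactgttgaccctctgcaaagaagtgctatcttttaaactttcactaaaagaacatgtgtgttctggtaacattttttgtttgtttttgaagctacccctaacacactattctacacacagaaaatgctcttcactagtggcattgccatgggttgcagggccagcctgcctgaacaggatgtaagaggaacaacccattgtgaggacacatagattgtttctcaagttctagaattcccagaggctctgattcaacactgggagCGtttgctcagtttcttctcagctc
Zpbp2 (chr11:98550847-98551146, + strand): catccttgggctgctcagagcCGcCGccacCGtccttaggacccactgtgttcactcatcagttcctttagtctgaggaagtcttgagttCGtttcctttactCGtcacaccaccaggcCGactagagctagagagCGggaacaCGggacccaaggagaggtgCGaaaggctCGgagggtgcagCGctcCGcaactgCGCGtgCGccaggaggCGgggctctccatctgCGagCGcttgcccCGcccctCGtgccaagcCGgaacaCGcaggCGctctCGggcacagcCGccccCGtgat
Dpy19l2 (chr9:24696244-24696543, - strand): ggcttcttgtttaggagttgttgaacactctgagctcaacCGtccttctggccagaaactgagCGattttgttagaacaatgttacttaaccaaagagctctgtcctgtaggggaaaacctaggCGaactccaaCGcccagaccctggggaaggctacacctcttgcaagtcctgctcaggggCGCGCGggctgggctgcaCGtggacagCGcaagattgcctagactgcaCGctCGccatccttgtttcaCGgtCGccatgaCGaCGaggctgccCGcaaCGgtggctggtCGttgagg

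Among the same windows, Izumo1 alone held the full cAMP response element, TGACGTCA, which was searched on both strands and occurs in 1.79% of all 32851 windows. In Izumo1 it lies 96 to 89 bases before the start and is shown in capitals.
Izumo1 (chr7:45621561-45621860, + strand): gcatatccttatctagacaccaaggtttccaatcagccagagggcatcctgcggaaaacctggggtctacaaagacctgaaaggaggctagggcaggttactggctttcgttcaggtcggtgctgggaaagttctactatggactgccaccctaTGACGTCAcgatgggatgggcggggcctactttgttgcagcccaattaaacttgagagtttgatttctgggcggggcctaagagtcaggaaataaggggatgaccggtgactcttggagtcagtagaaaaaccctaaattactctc

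The shorter core TGACG, which the full element contains, occurred in 6 of the 9 windows (Spaca1, Spaca3, Zpbp2, Izumo1, Acrbp, and Dpy19l2), against 20.8% of all windows. CCAAT occurred in Zpbp and Izumo1, against 37.4% of all windows. TATAAA occurred in none of the 9, against 13.6%. All 4 motifs were searched on both strands, and these are matches of letters only.

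All 10 gene starts held H3K4me3 fragments in all 4 libraries, while H3K27me3 and H3K9me3 fragments were few. The window of 1 kb on each side of the start is of equal length for every gene, so levels in FPM can be compared between genes. Each library is a bulk of sorted cells, in which fewer marked cells and less mark per cell cannot be told apart. Summed over the 10 genes and the 4 libraries of a target, H3K4me3 gave 1549 fragments or 200.96 FPM (exact 95% Poisson interval 191 to 211). IgG gave 13 fragments or 16.4 FPM (8.75 to 28.1). H3K27me3 gave 51 fragments or 6.70 FPM (4.99 to 8.81), and H3K9me3 gave 45 or 1.94 FPM (1.42 to 2.60). Both of these intervals lie under that of H3K4me3, and that of H3K9me3 lies under that of IgG. The order of H3K9me3 and IgG rests on scaling to library totals, since scaling on the median ratio of genes turned the all-gene median of their WT log2 difference at starts from −1.03 to 1.90. All intervals cover counting error only, and a pooled rate weights the deeper libraries more.

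Acr and Acrbp held the highest mean levels. Acr encodes acrosin, a serine protease of the acrosome, and lies at chr15:89568326-89574585. Its start held 28.05 and 30.3 FPM of H3K4me3 in WT and 32.6 and 35.9 in KO, a mean of 31.7 ± 3.38 (SD, n = 4). It ranked above 98.6% of all protein-coding starts by that mean. Acrbp (chr6:125049689-125063267), which encodes the protein that binds proacrosin, held 10.2 and 37.6 in WT and 31.9 and 38.6 in KO. The 10.2 of WT replicate 1 rests on 8 fragments, and the mean of 29.6 carries the widest spread of the 10 genes (SD 13.2). Acrbp was the highest of the 10 in WT replicate 2 and KO replicate 2, was under Acr alone in KO replicate 1, and was above Spam1 alone in WT replicate 1.

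Zpbp (chr11:11279626-11462408) and Zpbp2 (chr11:98551097-98558665) encode paired acrosomal proteins that bind the zona pellucida, and they differed in level. Zpbp held 24.2 and 25.2 in WT and 22.3 and 22.98 in KO, the tightest set of 4 values (23.7 ± 1.31, n = 4). Zpbp2 held 15.3 and 16.05 in WT and 10.4 and 8.84 in KO. Every Zpbp value was above every Zpbp2 value, although the Zpbp2 promoter window has the most CpG of the 9.

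Acrv1 (chr9:36693220-36698843) encodes an acrosomal vesicle protein, and Spaca3 (chr11:80858365-80867814) a lysozyme-like protein of the acrosome. Acrv1 held 20.4 and 20.6 in WT and 19.3 and 22.7 in KO, with 1 CpG in its window. Spaca3 held 15.3 and 26.1 in WT and 23.001 and 20.9 in KO. Their means, 20.8 and 21.3, lay closer to each other than the spread of Spaca3 (SD 4.56).

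Spaca1 (chr4:34024874-34050191) encodes a membrane protein of the acrosome that is needed for its shape, and Dpy19l2 (chr9:24557047-24696293) a protein of the inner nuclear membrane that holds the acrosome to the nucleus. Spaca1 held 14.0 and 11.5 in WT and 11.9 and 9.43 in KO. Dpy19l2 held 12.7 and 10.1 in WT and 14.8 and 7.66 in KO. Both genes sat near the lower end of the 10, at the 68.9 and 68.2 percentiles of all starts.

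Spam1 (chr6:24791188-24801048) encodes the hyaluronidase of the sperm surface, which loosens the matrix around the egg. Its start held 6.37 and 9.17 in WT and 14.8 and 14.7 in KO. Izumo1 (chr7:45621811-45628823) encodes the sperm protein that binds the egg receptor Juno and is required for fusion. Its start held 16.6 and 22.5 in WT and 19.3 and 22.98 in KO. Over the 4 libraries, Spam1 had the lowest mean level of the 10 (11.3) and Izumo1 the sixth (20.3). Spam1 was the lowest in WT, while in KO Zpbp2 (9.61), Spaca1 (10.6), and Dpy19l2 (11.2) were below its 14.8.

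In order of mean level over the 4 libraries, the genes ran Acr, Acrbp, Zpbp, Spaca3, Acrv1, Izumo1, Zpbp2, Spaca1, Dpy19l2, and Spam1. Neighbours in that order differed by less than the larger of their SDs, with the single exception of the step from Izumo1 (20.3 ± 2.99) to Zpbp2 (12.6 ± 3.57). In 3 of 4 libraries each of the first 6 genes was above each of the last 4. WT replicate 1 was the exception, where Acrbp at 10.2 lay under Zpbp2 at 15.3 and Spaca3 was level with Zpbp2. The plot of levels by library shows this step and the IgG values on the same scale.

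**Figure D1:**
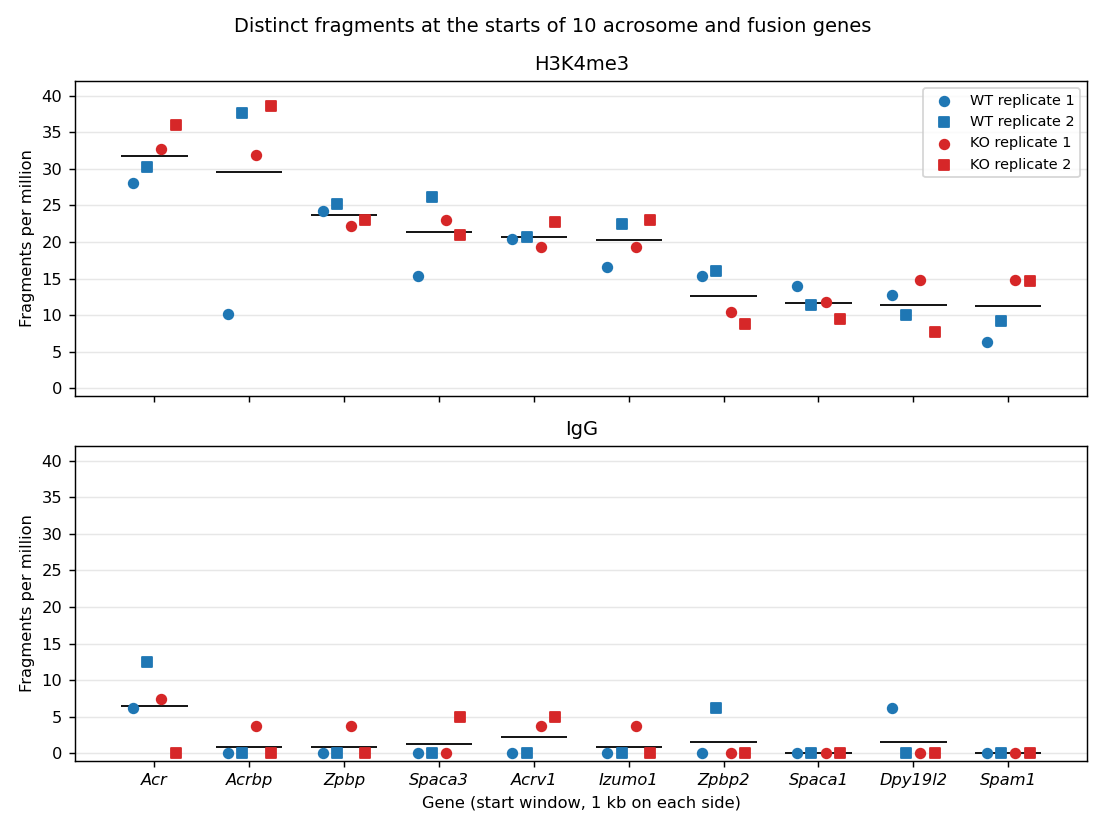
Distinct fragments within 1 kb of the start of each gene in FPM, for H3K4me3 (top) and IgG (bottom), with genes in order of mean H3K4me3. Points are single libraries (blue WT, red KO, circles replicate 1, squares replicate 2) and bars the mean of 4. The H3K4me3 mean falls from 31.7 at Acr to 11.3 at Spam1, and IgG is at 0 in 29 of 40 values.

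CpG content and H3K4me3 went together over all genes, and Acrv1 and Spam1 were above most genes with as few CpG. Of 1912 genes with at most 1 CpG in the window nearest their start, the median level was 0.147 FPM and 12.6% were called above IgG in the 8-library fit described next. For 6223 genes with 20 or more CpG the median was 11.3 and 67.7% were called. Both shares count untested genes as not called. Of the 1912 genes 370 were tested and 240 called, and of the 6223 genes 5358 and 4211. Acrv1, at 20.8, was above 94.3% of the CpG-poor genes, and Spam1, at 11.3, above 89.4%. The starts of 2 noncoding genes on the other strand, 1700027I24Rik and Gm49367, lie at −31 and −251 bp from the Acrv1 start, so its fragments cannot be assigned to 1 start. No other annotated start lies within 1 kb of Spam1.

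Against IgG, the H3K4me3 level at each start was tested with limma-voom over all protein-coding genes with at least 10 fragments, with two-sided p-values adjusted by the Benjamini-Hochberg method and called under 0.05. In WT, 7 of the 10 genes were called higher, against 64.2% of the 10895 genes tested. The background counts only the 49.7% of genes that reached 10 fragments, as all 10 did. Each of the 10 reached it through H3K4me3 alone, with at least 25 fragments against at most 3 of IgG. The minimum thus favours genes high in H3K4me3. In KO all 10 were called higher, against 77.6% of 11924 genes. The WT differences ran from 1.14 at Dpy19l2 to 3.02 at Zpbp on the log2 scale, with a median of 2.38 against 1.81 for all genes tested. Acr (1.31 ± 0.66 SE, adjusted p = 0.169), Zpbp2 (1.58 ± 0.81, adjusted p = 0.174), and Dpy19l2 (1.14 ± 0.80, adjusted p = 0.282) were the 3 not called in WT. With the sibling pair as a block, Acr also passed in WT (adjusted p = 0.0305), with 63.7% of all genes called higher. Acr had the most IgG fragments of the 10, with 1 and 2 in WT and 2 and 0 in KO. The 3 genes not called without the block were the only ones of the 10 with a WT IgG fragment. Zpbp2 had 0 and 1, and Dpy19l2 1 and 0. These calls did not follow the H3K4me3 level, as Spam1, at a WT mean of 7.77 FPM, was called and Acr, at 29.2, was not.

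These calls rest on very few IgG fragments and on every IgG library. No gene of the genome was called in WT when either H3K4me3 library (WT replicate 1 or 2) or either IgG library was left out, and none in KO when IgG KO replicate 1 or 2 was left out. A fit of all 8 H3K4me3 and IgG libraries with genotype as a term, added after these losses were seen, called all 10 genes higher, against 73.7% of 12886 genes, and called all 10 again without each library in turn, but 4 of 10 (Acrbp, Zpbp, Spaca3, and Izumo1) with scaling on the median ratio of genes, which moved the median of all genes from 1.92 to 0.66 and the share of calls that were higher from 97.8 to 66.2%. Scaled to library totals, Acrbp had the largest difference (2.91 ± 0.45, adjusted p = 0.000346) and Dpy19l2 the smallest (1.79 ± 0.47, adjusted p = 0.00622). In the fits of 1 genotype that scaling, in place of the library total, moved the median of all genes from 1.81 to 0.68 in WT and from 2.27 to 0.26 in KO. It left 2 of the 10 called in WT and 0 in KO, and it moved the share of calls that were higher from 99.7 to 88.9% and from 99.2 to 64.6%. Relative to the median of all genes, 6 of the 10 were above it in WT and 7 in KO.

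Fitted differences depend on the prior count where IgG is near 0, so counted ratios are given too, over the 4 libraries of each target. Spaca1 and Spam1 had no IgG fragment. Against the 3 counts that an observation of 0 allows over the group, they were 2.87-fold and 3.25-fold higher in H3K4me3. Both values leave out the counting error of H3K4me3, so they are not bounds like the exact intervals that follow. Acr was 5.21-fold higher (exact 95% interval 2.21 to 16.2), with 5 IgG fragments. Acrbp had 264 H3K4me3 fragments and 1 of IgG, a ratio of 27.1 with an interval of 4.82 to 1074. The lower bound was above 1 for each of the 8 genes with an IgG fragment, the lowest being 1.40 at Dpy19l2. These ratios keep the scaling to library totals, on which the fits above depended.

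H3K27me3 and H3K9me3 were too sparse at these starts for most tests. No gene of the 10 reached 10 fragments over the 4 WT libraries of either mark and IgG. H3K27me3 was at 0 in 18 of 40 values and H3K9me3 in 13 of 40. The exception was Izumo1, whose start held 7 and 1 H3K27me3 fragments in WT and 13 and 3 in KO, as many as 24 of the 51 over all 10 genes. In KO its difference from IgG was 0.24 ± 0.76 on the log2 scale (adjusted p = 0.806), with 66.2% of 5867 genes called higher. In the fit of 8 libraries it was 0.42 ± 0.41 (adjusted p = 0.387), with 64.7% of 6706 genes called higher. That call appeared only when H3K27me3 KO replicate 2 was left out. For H3K9me3 the same kind of fit called Izumo1 under IgG (−2.89 ± 0.60, adjusted p = 0.0134), with 35.4% of 4611 genes called lower. Its 10 H3K9me3 fragments against 1 of IgG gave a counted ratio of 0.34 with an interval of 0.049 to 14.8, which includes 1. The call was lost without IgG KO replicate 1 or either IgG WT library, and with median-ratio scaling, which moved its difference to −0.86 and the median of all genes from −1.90 to 0.10. Acr reached the minimum of 10 only through its 5 IgG fragments, beside 7 of H3K9me3, so its result is not read, and the other 8 were not tested.

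Around the starts, H3K4me3 spread over kilobases, and unevenly between the genes. Within 5 kb on each side, 53.4% of the Izumo1 fragments lay downstream of the start and 51.9% of those of Acr, against a median of 60% over 12887 genes with at least 30 fragments (quartiles 45.1 and 74.2%). Zpbp (49.4%), Spaca3 (40.0%), Acrbp (59.3%), and Acrv1 (62.8%) were also covered on both sides. Dpy19l2 (90.5%), Zpbp2 (83.1%), Spaca1 (82.3%), and Spam1 (79.5%) were covered mainly downstream, and each of these 4 was past the upper quartile. The split was alike in the 4 libraries, with 71.7% as the lowest downstream share in any library for these 4 genes and 65.3% as the highest for the other 6.

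The 6 genes covered on both sides are the same 6 with the higher levels. The level counts both sides of the start, so the 2 traits are not independent. Within 1 kb upstream the 6 held 72 to 126 H3K4me3 fragments over the 4 libraries, and the other 4 genes held 18 to 33. Within 1 kb downstream the ranges were 81 to 144 and 51 to 75. Of the first 6 genes, 4 have a start on the other strand within 1 kb. They are Acrv1 (named above), Spaca3 (the antisense gene 4930507D10Rik, at −65 bp), Zpbp (the protein-coding gene Spata48, at 314 bp into Zpbp), and Acrbp (the antisense gene 4930557K07Rik, 162 bp downstream). Acr and Izumo1 have none, and neither has any of the 4 genes covered downstream. Fragments carry no strand, so those of facing genes cannot be told apart.

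At all but Zpbp2, most of the H3K4me3 within 5 kb lay outside the start window, which is the smaller part of that span. Beyond 1 kb lay 76.9% of the fragments of Dpy19l2 within 5 kb, 76.5% of those of Zpbp, and 71.9% of those of Acr, against a median of 55.0% over all genes (quartiles 38.6 and 68.7%). Spaca1 (75.2%), Spaca3 (73.3%), and Acrv1 (72.3%) were also past the upper quartile. Izumo1 (64.8%), Acrbp (64.2%), and Spam1 (62.6%) lay between the quartiles. Zpbp2 was the narrow one, with 26.6% beyond 1 kb and 3 fragments of 124 between 1 and 5 kb upstream.

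**Figure D2:**
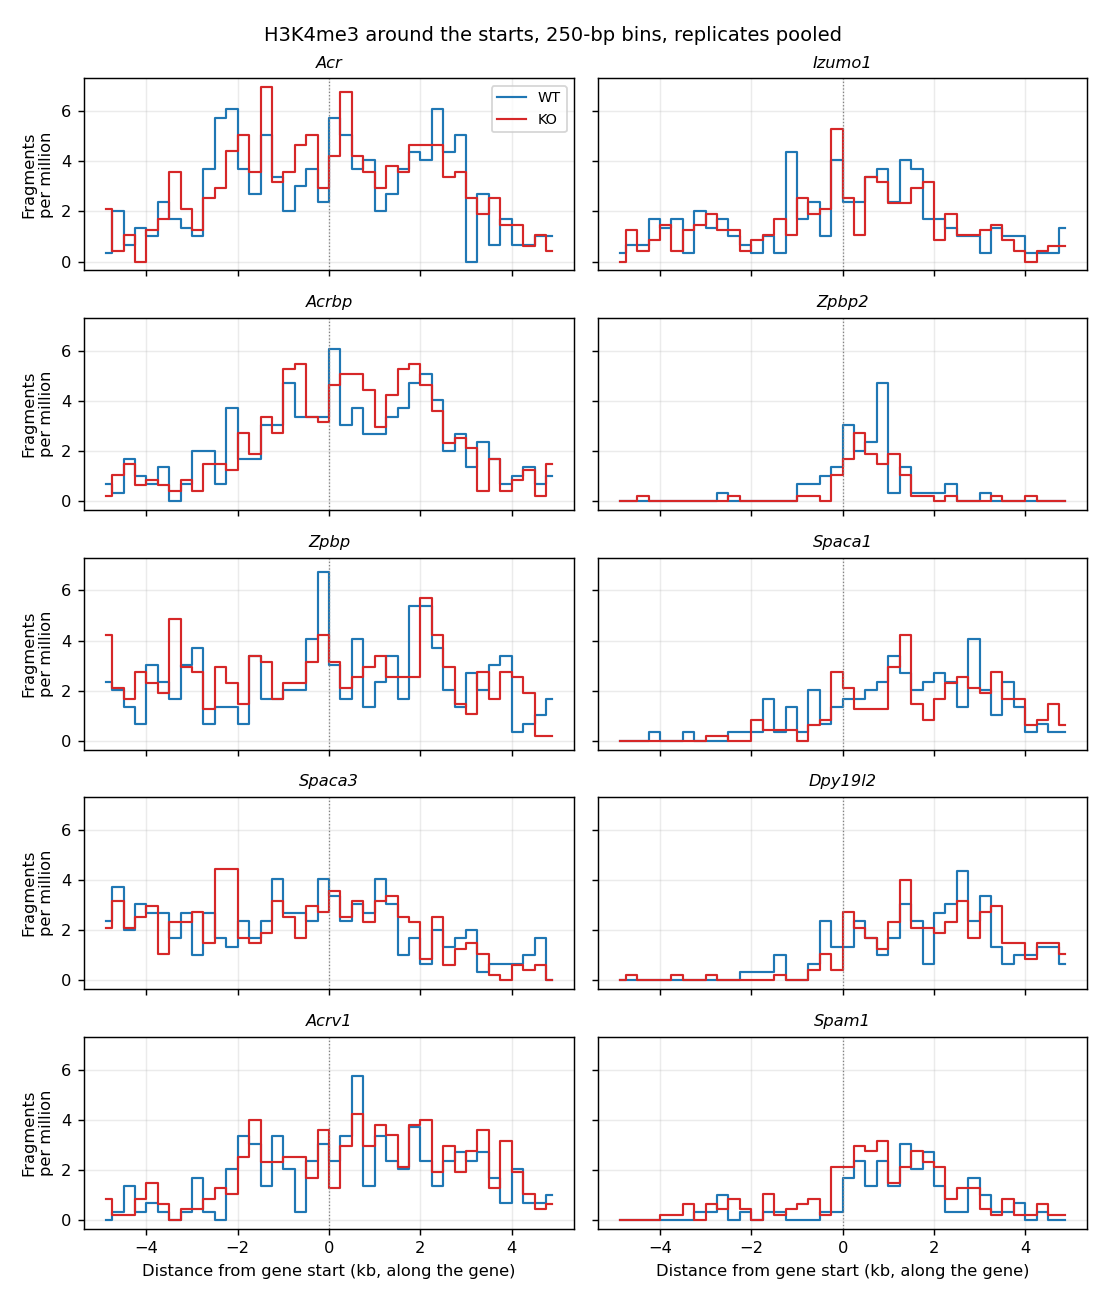
H3K4me3 FPM in 250-bp bins against the distance from the gene start along the gene, with the replicates of WT (blue) and KO (red) pooled and the genes in order of mean level down each column. Acr, Acrbp, Zpbp, Spaca3, Acrv1, and Izumo1 are covered on both sides of the start, and Zpbp2, Spaca1, Dpy19l2, and Spam1 mainly downstream, with 79.5 to 90.5% of fragments there.

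Silent marks were higher a few kilobases upstream than at the start at Izumo1, Spam1, Zpbp2, and Spaca3, which was noticed in the profiles and is given with no test. At Izumo1, the stretch 3 to 5 kb upstream held 88 and 4 H3K27me3 fragments in WT and 125 and 17 in KO, or 30.4, 19.95, 32.8, and 23.9 FPM. The same libraries held 24 fragments in all within 1 kb of the start, and the IgG libraries held 0 in the upstream stretch. Fut1, a fucosyltransferase gene named after these values were seen, begins within that upstream stretch. The stretch 3 to 5 kb downstream held 63 fragments, and Rasip1, whose start lies 5677 bp after that of Izumo1, overlaps the end of its body.

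At Spam1 the mark was H3K9me3, at a level near that of a single IgG fragment. The stretch 3 to 5 kb upstream held 35 and 8 fragments in WT and 25 and 15 in KO, or 5.69, 1.60, 3.71, and 2.86 FPM. The 2 kb around the start held 4 fragments over the 4 libraries. WT replicates 1 and 2 were the highest and the lowest, so the genotypes overlapped. IgG held 1 fragment there in WT replicate 1 and 1 in KO replicate 1, or 6.16 and 3.70 FPM, and 0 in the other libraries.

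H3K27me3 was also higher upstream of Zpbp2 and Spaca3, at low levels. At Zpbp2 the stretch 3 to 5 kb upstream held 14 and 0 fragments in WT and 21 and 2 in KO, or 4.84, 0, 5.52, and 2.81 FPM, and the 2 kb around the start held 3 over the 4 libraries. At Spaca3 it held 9 and 0 in WT and 16 and 3 in KO, or 3.11, 0, 4.20, and 4.21 FPM, and the 2 kb around the start held 8. IgG held 1 fragment in each stretch, at 6.27 FPM in WT replicate 2 for Zpbp2 and 3.70 FPM in KO replicate 1 for Spaca3.

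**Figure D3:**
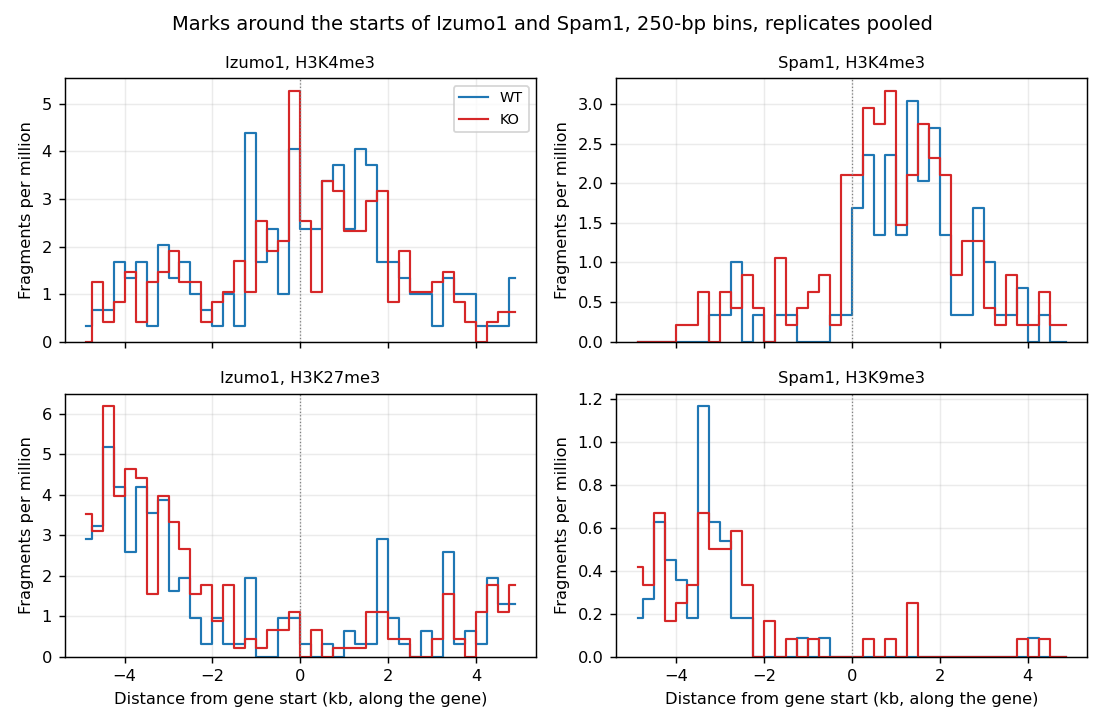
FPM in 250-bp bins around the starts of Izumo1 (left) and Spam1 (right), for H3K4me3 (top) and for H3K27me3 or H3K9me3 (bottom), with the replicates of WT (blue) and KO (red) pooled. The lower panels are highest away from the start, at Izumo1 to 234 H3K27me3 fragments 3 to 5 kb upstream and at Spam1 to 83 H3K9me3 fragments.

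Summed over the 10 gene bodies, from start to end, H3K4me3 again led in WT, with 579 and 560 FPM against 160 and 200 for IgG. The sum weights the longest genes most and does not speak for each gene. Acr held 9.37 and 10.4 FPM per kb in WT and Acrv1 8.84 and 7.83, whereas Zpbp, which is 183 kb long, held 0.739 and 0.559. Acr (4.34 ± 0.36 on the log2 scale), Acrv1 (3.90 ± 0.37), and Spaca3 (3.55 ± 0.38) were called above IgG, each with adjusted p = 0.0282. They are 3 of 10, against 23.5% of 16144 genes. Each of the 3 bodies held 0 IgG fragments in WT, beside 188, 135, and 109 of H3K4me3. They thus reached the minimum of 10 through H3K4me3 alone, and their fitted differences depend on the prior count. With the sibling pair as a block Acrbp passed too (adjusted p = 0.0323), with 23.9% of all genes called higher. None was called without the first 1 kb, nor when any 1 of the 4 WT libraries was left out (H3K4me3 or IgG, replicate 1 or 2).

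H3K27me3 was called under IgG over the longest bodies, those of Zpbp and Dpy19l2. Of the 4 genes with enough H3K27me3 fragments, Zpbp (−2.73 ± 0.48 on the log2 scale, adjusted p = 0.0221) and Dpy19l2 (−2.42 ± 0.43, adjusted p = 0.0230) were called under IgG, with 5.8% of 11046 genes called lower. Both calls were lost under scaling on the median ratio, with every deposited fragment, without the minimum of 10 fragments, and without either H3K27me3 WT library. For H3K9me3, 5 genes were tested and none was called, as limma-voom and limma-trend called 0% of 14095 genes, of which 5512 had an unadjusted p under 0.05. Scaling on the median ratio called 848 genes higher, which made up 98.4% of its calls. It moved the median of the 5 from −1.60 to 0.28, with none of the 5 called. With the pair as a block, Acrbp passed as lower (adjusted p = 0.0428) among the tested genes other than Izumo1, against 39.7% of all genes called lower. That value rests on 1 and 0 IgG fragments in WT, beside 7 and 4 of H3K9me3.

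No difference in H3K4me3 between KO and WT passed the test at any of the 10 starts. The summed level of the 10 was 163 and 209 FPM in WT and 200 and 205 in KO. The study compares KO with WT to ask how the chromatin of haploid cells differs without H2A.B. limma-voom called 0 of the 10 genes and 0 of 12780 tested, so the background is 0%, and limma-trend called 0 too. At an unadjusted p under 0.05 there were 399 genes, or 3.12%, and 1 of the 10. On simulated data the same fit found 64 of 200 genes changed by 1 on the log2 scale and 156 of 200 changed by 2. It made 2 and 15 false calls. The simulated replicates had counting error alone and no variation between animals, so real recovery can be lower.

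Fitted KO minus WT differences ran from −0.77 at Zpbp2 to 0.80 at Spam1, with a median of 0.01 against 0.17 for all genes tested. Standard errors were 0.34 to 0.42, and every adjusted p was 0.999. At Zpbp2 the difference was −0.77 ± 0.37 (unadjusted p = 0.0457), and it was −0.57 in pair 1 and −0.86 in pair 2. At Spam1 it was 0.80 ± 0.42 (unadjusted p = 0.065), with 1.12 and 0.66 in the pairs. Acrbp, at 0.49 ± 0.39, had 1.57 in pair 1 and 0.03 in pair 2, and the first of these rests on the 8 fragments of WT replicate 1. Scaling on the median ratio brought the median of all genes to −0.01, and 3 of the 10 were above that median.

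For 4 of the 10 the KO and WT values did not overlap, against 34.6% of all genes tested, which is about the same share. KO was above WT at Acr and Spam1 and below it at Zpbp and Zpbp2. Over all genes 27.8% had KO above WT and 6.75% had KO below.

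Over the bodies, H3K4me3 differences were smaller, from −0.42 at Zpbp2 to 0.31 at Spam1, with adjusted p of 0.9999 throughout and 0% of 18143 genes called (51 at an unadjusted p under 0.05). Only Acrv1 (KO above) and Zpbp2 (KO below) did not overlap, against 22.3% of genes in either direction (14.5% with KO above and 7.78% with KO below).

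**Figure D4:**
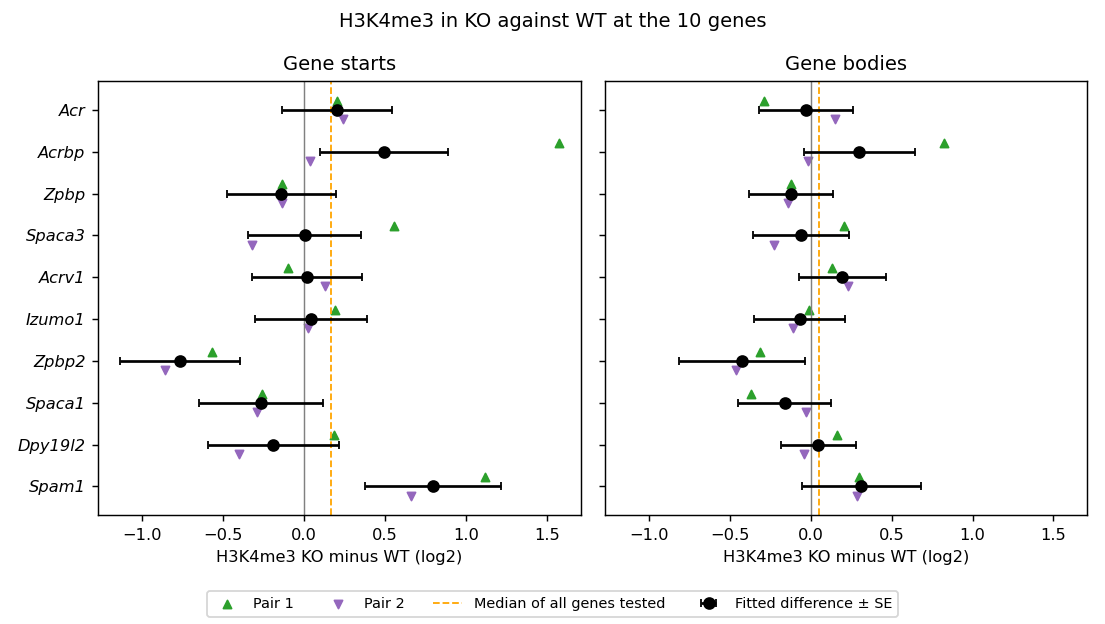
H3K4me3 KO minus WT differences on the log2 scale at the starts (left) and over the bodies (right). Black points are fitted differences with bars of 1 SE, triangles the differences within sibling pairs 1 and 2, and the dashed line the median of all genes tested. Zpbp2 is the lowest and Spam1 the highest in both panels, and Acrbp shows the widest gap between pairs at the starts.

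For the other targets few of the genes could be tested between genotypes. At starts only Izumo1 was tested, with −0.10 ± 0.95 for H3K27me3 and −0.14 ± 0.99 for H3K9me3, and no gene of the 10 was tested for IgG. Over bodies, 5 genes were tested for H3K27me3 (−1.18 at Spaca1 to 0.70 at Spaca3), 9 for H3K9me3 (−0.27 at Zpbp to 0.87 at Spam1), and 3 for IgG (Zpbp, Izumo1, and Dpy19l2). None of the 10 was called, with a background of 0% in each, and limma-trend called none as well. Unadjusted p-values under 0.05 numbered 151 of 6492 and 74 of 4286 genes for H3K27me3 and H3K9me3 at starts, 0 of 85 for IgG, and 7, 97, and 71 over bodies. With the sibling pair as a block, 45 genes were called for H3K9me3 over bodies and 37 for IgG, and 0 of the 10 in either.

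Averaged over replicates, H3K4me3 fragments at the 10 starts were shorter in KO than in WT to about the degree seen at all starts. Small fragments, of at most 120 bp, are shorter than the DNA of a whole nucleosome, and large ones are of at least 150 bp. Small fragments made up 41.5% (Wilson 95% interval 33.0 to 50.5%) and 27.5% (23.4 to 31.9%) of small and large H3K4me3 fragments at the 10 starts in WT replicates 1 and 2. In KO they made up 47.2% (41.1 to 53.4%) and 43.8% (40.0 to 47.7%). The 41.5% of WT replicate 1 lies within both KO intervals. At all protein-coding starts the shares were 29.1 and 24.5% in WT and 39.6 and 38.2% in KO. The share at the 10 genes was above that of all starts in each of the 4 libraries, and its interval left out the latter in WT replicate 1 and both KO libraries.

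As the log2 ratio of small to large, KO minus WT was 0.68 at the 10 starts (0.33 and 1.04 in the pairs) and 0.81 at all starts (0.68 and 0.94). The difference at the 10 starts is larger than the SD between replicates of 0.46, which is no test with 2 libraries in each group. Without H3K4me3 WT replicate 2 the difference fell to 0.23. For the other targets the value at the 10 starts rests on 0 to 16 fragments of a size class in a library. It was 1.98 (0.79 and 3.17 in the pairs) for H3K27me3 against 0.75 at all starts, −1.22 (−0.67 and −1.77) for H3K9me3 against 0.15, and −1.22 (−3.17 and 0.74) for IgG against 0.34. Over the bodies the H3K4me3 value was 0.85 (0.71 and 0.99 in the pairs) against 0.84 for all genes, with SDs of 0.10 each. Gene by gene, centred on each library's median, none of the 10 was called, and 1 of 9864 genes was (0.0101%). The fitted values ran from −0.64 at Acrbp to 0.88 at Dpy19l2, with standard errors of 0.39 to 0.74. Before centring, the KO library held the larger small share in each pair at Acr, Acrbp, Acrv1, Dpy19l2, and Spam1, and in pair 2 alone at the other 5. In the simulation this test found 3 of 200 genes changed by 1 on the log2 scale and 74 of 200 changed by 2. That simulation, too, had counting error alone.

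**Figure D5:**
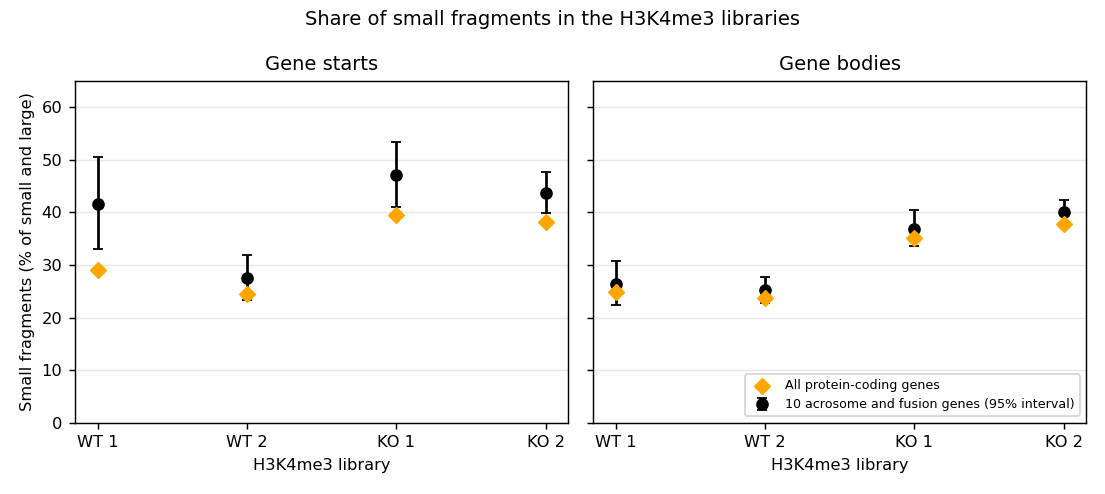
Small fragments as a percentage of small and large H3K4me3 fragments at the starts (left) and over the bodies (right), for the 10 genes (black, with Wilson 95% intervals) and all protein-coding genes (orange), in each library. Both sets are higher in KO 1 and KO 2 than in WT 2, and at the starts WT 1 of the 10 genes, at 41.5%, lies within the intervals of KO 1 and KO 2.

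A list of 55 other genes of the acrosome, of fusion, and of zona binding gave a similar picture. At starts in WT, 33 of the 49 tested were above IgG in H3K4me3 (background 64.2%), with a median of 2.05 on the log2 scale, and in KO 46 of 50 (background 77.6%) with a median of 2.58. In the fit of 8 libraries 45 of 50 passed (background 73.7%), among them 23 of 25 genes for formation and matrix, 8 of 9 for fusion and binding to the egg membrane, and 14 of 16 for binding to the zona and migration. The largest WT differences were at Pmis2 (3.26 ± 0.37), Pdilt (3.18 ± 0.29, a testis chaperone), and Adam5 (3.14 ± 0.21, a sperm surface protein of the ADAM family). The smallest were at Tex101 (−0.55 ± 0.74), Pgap1 (0.06 ± 0.12), and Hyal5 (0.10 ± 0.75, a sperm hyaluronidase like Spam1), none of which passed in WT or in the fit of 8 libraries, although all 3 passed in KO. In WT, Tex101 held 1 and 21 H3K4me3 fragments and Pgap1 2 and 8, with 0 of IgG at both. Their fitted WT values therefore depend on the prior count and do not show a level at or under IgG.

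Hyal5 and Pmis2 differed in H3K4me3 in all libraries but WT replicate 1, and by few fragments in IgG. The Hyal5 start held 15 and 17 H3K4me3 fragments in WT and 23 and 50 in KO, and 2, 1, 1, and 1 of IgG. Pmis2 held 15, 86, 48, and 106, and none of IgG. Between genotypes none of the 55 was called for any target at starts, and the H3K4me3 differences of the 50 tested ran from −0.75 to 0.78.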

How the data were processed

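Haploid spermatids of 2 KO and 2 WT mice were profiled with 3 histone antibodies and IgG, giving 16 libraries in 8 groups of 2. Paired reads were aligned to mm10 with Bowtie2 (2.3.4.3 in the submitters' processing notes). Judged by their columns and values, the authors deposited lists of mapped fragments with coordinates and lengths in bp, unscaled, not counts per gene. PCR duplicates are stated to have been removed, yet 33.6 to 83.4% of the listed fragments repeat another's coordinates, so each was counted once per library, by its midpoint. The genes and lists were chosen with earlier results of these data known. They were named by rule, which took all 10 genes and, of the 55 others, the 3 largest and 3 smallest WT differences of H3K4me3 over IgG.

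Counts at starts (1000 bp on each side) and bodies of GENCODE vM21 protein-coding genes were fitted with limma-voom (limma 3.58.1, R 4.3.3), scaled to distinct fragments on the main chromosomes, with at least 10 fragments over the libraries of a fit. For the small-to-large ratio 0.5 was added to both counts, and a gene needed 10 fragments of each class. Adjusted p-values are two-sided limma values after Benjamini-Hochberg adjustment over all genes tested. With 2 libraries against 2, an exact permutation test could not pass, so none was run. The fits were tested on simulated data, whose replicates differed by counting error and depth alone. Tables were made with Python 3.11.15, pandas 2.3.3, NumPy 2.4.6, and SciPy 1.17.1, and figures with matplotlib 3.10.9.

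The methods describe 2 sibling pairs, and libraries with the same replicate number share a date string in their titles. Deviations from group means correlated between same-numbered samples over all genes (r = 0.242 for H3K4me3, 0.298 for H3K27me3, 0.196 for H3K9me3, and 0.215 for IgG at starts). The numbers were taken to pair the samples. The correlation does not establish this, because the date string and the order of depth of the replicates were also shared between genotypes for each target. Fits with and without the pair as a block, other scalings, filters, windows, and left-out libraries were compared. Intervals cover counting error only, as fragments carry no molecular identifiers. The comparisons of the Izumo1 body with IgG are not reported here.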

Additional observations from a re-analysis of the deposited data

How the results depend on the processing

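With H3K4me3 against IgG at starts, members called in WT went from 7 to 2 with median-ratio scaling and to 4 with 500 bp on each side, in KO from 10 to 4 with every deposited fragment and to 0 with median-ratio scaling, and in the fit of 8 libraries from 10 to 4 with median-ratio scaling. Leaving out 1 library gave 0 in each WT fit and 0 to 9 in KO, where the IgG libraries gave 0, and 10 in each fit of 8 libraries. Over WT bodies the 3 calls went to 0 with every deposited fragment, without the first 1 kb, and without any 1 library. With median-ratio scaling the KO difference of Acrv1, called before, became −0.28. Over all genes and with all 4 libraries, calls of higher at WT starts ran from 1020 (median-ratio scaling) to 8428 (every deposited fragment). In KO the calls of higher ran from 1396 to 9662, and over WT bodies from 0 to 4109. Izumo1 was called for H3K27me3 in the fit of 8 libraries (0 to 1 members) only without KO replicate 2. The summed small-to-large difference of H3K4me3 over bodies rose from 0.85 to 1.12 with every deposited fragment. Leaving out 1 library gave 0.23 to 1.14 at starts, 0.75 to 0.94 over bodies, −1.46 to 1.91 for H3K27me3 bodies (0.22 with all), and 0.02 to 1.25 for H3K9me3 bodies (0.63 with all). The causes were not tested, also for bodies without the first 1 kb, which leave out the start itself. Between genotypes no alternative called any of the 10 genes, in 640 values, all-gene counts ran from 0 to 53 (H3K9me3 bodies without 1 library), and uncentred ratios called 27. As a replicate block, the sibling pair called 8 of 10 at WT starts, 10 in KO, 4 over WT bodies, and 0 of 10 between genotypes, and apart from the Izumo1 body it changed no other member call than those given with the results. Of 1313 member values in all alternatives, 119 lost a call and 9 gained one. The IgG comparison of genotypes at starts could not be fitted with a minimum of 30 fragments, with 500 bp on each side, or without KO or WT replicate 1, nor the H3K27me3 fit of 8 libraries with median-ratio scaling. Of 40 IgG values at the starts 29 are 0, which limits each comparison with IgG.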
